A study of Mus musculus with 23 samples.

Results

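Interferon-stimulated genes (ISGs) were followed in the cortex of mice carrying substitutions of glycine 34 in the histone variant H3.3. The 45 genes were taken by name from the 39017 genes of the count file, 44 by symbol and Ifit3b by its Ensembl identifier, and they comprise sensors of foreign RNA and DNA, STAT and IRF regulators, and antiviral effectors. Total RNA from pulverised cortex was sequenced after depletion of ribosomal RNA in 23 libraries from 22 animals. At 10 weeks there were 6 wild type (WT) animals (Hf3fa+/+ in the labels), 3 G34R animals (glycine to arginine, Hf3fa+/G34R), 3 G34V animals (to valine, Hf3fa+/G34V) and 2 G34W animals (to tryptophan, Hf3fa+/G34W). At postnatal day 7 there were 4 WT (H3f3a +/+) and 4 G34R (H3f3a G34R/+) animals. Every mutant was heterozygous per the labels, so each also held a normal H3f3a allele. Per the sex labels G34W replicate 2 was the only female at 10 weeks, and both day-7 genotypes held males and females. The title of G34W replicate 2 begins with M, however, as do those of the animals labelled male. Its sex is therefore uncertain, and the label was used. The labels name no Cre, transgene or agent.

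Type I interferons bind a receptor made of IFNAR1 and IFNAR2, whose kinases JAK1 and TYK2 phosphorylate STAT proteins, among them STAT2. STAT2 acts with IRF9 in a complex that binds the interferon-stimulated response element in the promoters of ISGs. Interferon gamma acts through gamma-activated sites. In the brain, microglia, astrocytes, endothelium and neurons can all carry out this response, and sensors such as RIG-I (Ddx58) and MDA5 (Ifih1) can start it from RNA in the cytosol.

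To show the response element where members hold it, promoter sequences from RefSeq (GRCm38.p6) were searched in the 250 bases before each start for GAAANNGAAA on both strands, where N is any base. The promoter table held 34 of the 45 members. The element was found in 13 of these 34 genes (38.2%) and in 936 of 27025 genes overall (3.46%). It stood in 11 of the 24 members that were called higher in G34R at 10 weeks (45.8%) and in 1 of the 9 that were not called (11.1%), which was Stat2. The gamma-activated site TTCNNNGAA, searched in the same way, was found in 7 of 34 members (20.6%) and in 8.13% of all genes. A match is a string of letters and does not show that a factor binds there. For 28 of the 40 member promoters the 30 bases after the start occurred in a GENCODE transcript of that gene. Matches and distances depend on the start used. The stretches below run 5′ to 3′ along the gene's own strand. They were chosen to compare members that rose with Stat2, and capitals mark the element, read on either strand. In Bst2 the capitals also cover a gamma-activated site that overlaps the element.

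Isg15, chr4:156200860-156200911, minus strand: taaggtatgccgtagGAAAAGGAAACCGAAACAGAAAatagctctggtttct

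Ifit1, chr19:34640770-34640828, plus strand: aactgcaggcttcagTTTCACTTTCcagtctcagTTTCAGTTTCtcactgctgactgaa

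Ifit3, chr19:34583358-34583431, plus strand: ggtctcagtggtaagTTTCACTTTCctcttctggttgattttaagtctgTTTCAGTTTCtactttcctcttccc

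Ifit3b, chr19:34607754-34607827, plus strand: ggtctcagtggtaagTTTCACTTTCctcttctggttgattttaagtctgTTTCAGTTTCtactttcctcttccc

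Gbp2, chr3:142620589-142620628, plus strand: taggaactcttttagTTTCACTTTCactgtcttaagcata

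Rsad2, chr12:26456548-26456587, minus strand: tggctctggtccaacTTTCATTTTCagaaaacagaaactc

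Bst2, chr8:71537572-71537617, minus strand: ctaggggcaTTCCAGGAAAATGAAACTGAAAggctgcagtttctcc

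Stat2, chr10:128270261-128270300, plus strand: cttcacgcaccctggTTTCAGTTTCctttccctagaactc

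The stretches of Ifit3 and Ifit3b were identical at 74 of 74 bases. Isg15 held 3 overlapping elements that began 78, 72 and 66 bases before the start. In Stat2 the element began 222 bases before the start, farther out than in the other members with a match, where the first base lay between 14 and 188 bases before it.

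At 10 weeks the ISGs stood higher in all 3 G34R animals. Of 44 members tested against WT, 32 rose (72.7%), none fell and 12 passed no threshold, where a call is an edgeR adjusted p under 0.05. Among all 21283 genes tested, 2.94% were called higher and 2.65% lower. The median log2 fold change of the 44 members was 0.90 (range 0.06 to 2.5), against -0.0035 over all genes. In 35 of the 44 every G34R animal lay above every WT animal, which 6.04% of all genes did. Oas3 had too few counts to be tested at 10 weeks. Levels are given as CPM, counts scaled to a common library size and not corrected for gene length. For WT the values are the lowest, the median and the highest of 6 animals, and for the mutants they follow replicates 1, 2 and 3.

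**Figure D1:**
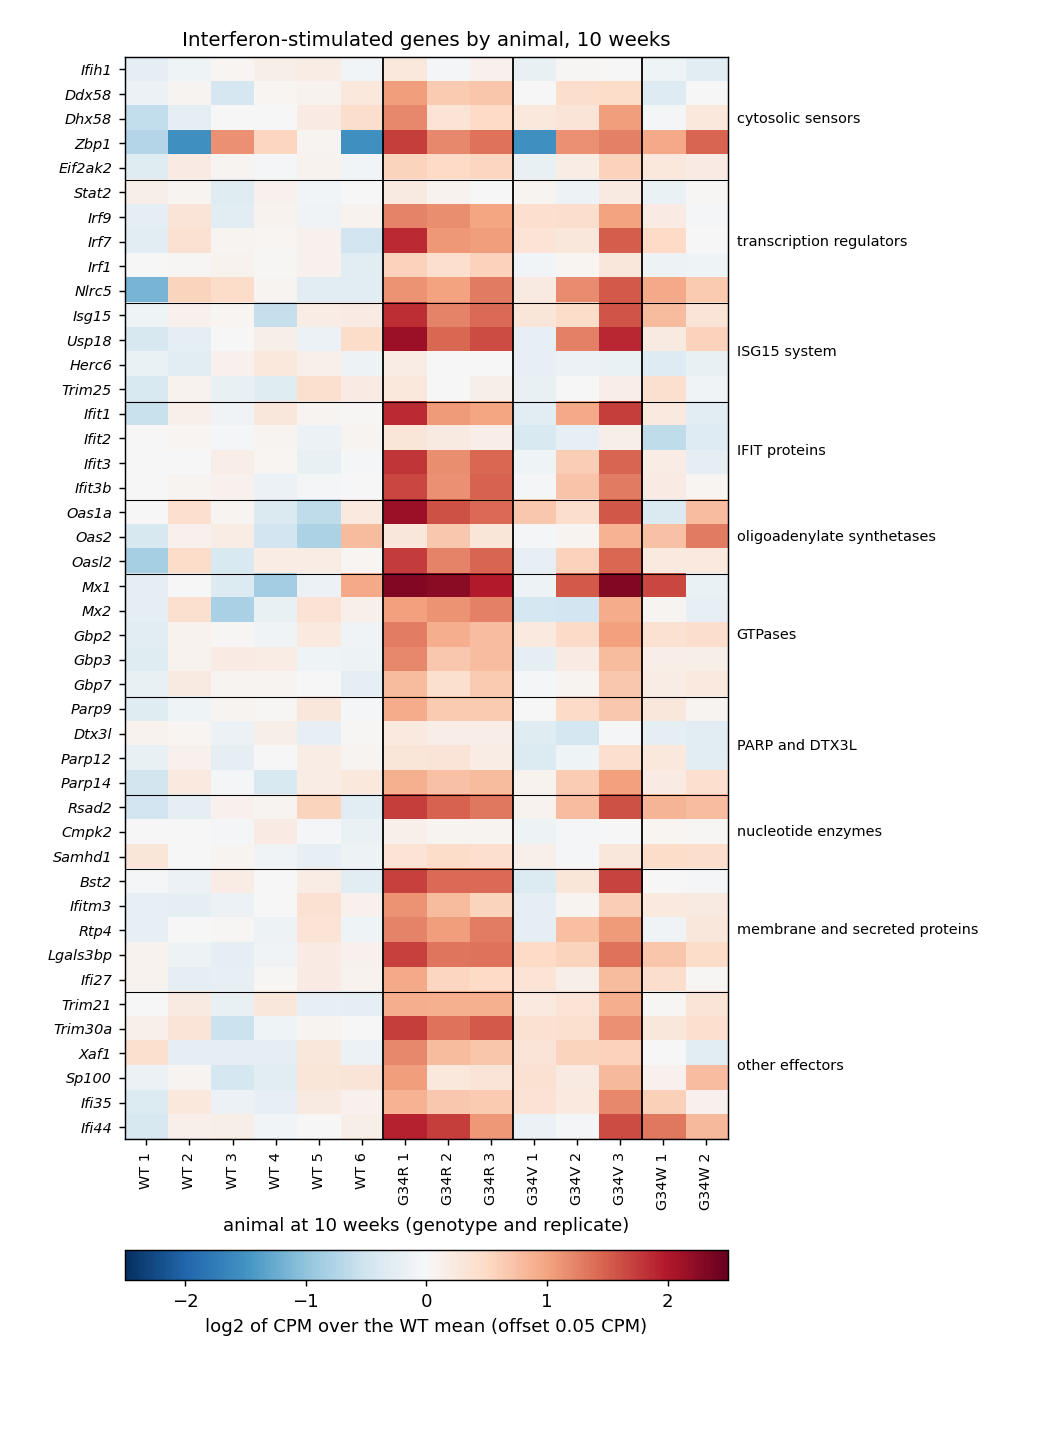
Each row is 1 of the 44 members tested at 10 weeks, grouped by role, and each column is 1 animal. Colour gives the log2 of CPM over the WT mean, with 0.05 CPM added to both. The 3 G34R columns and G34V replicate 3 are red for most members, G34V replicate 1 is near the WT colour, and rows such as Stat2, Herc6 and Cmpk2 stay pale throughout.

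Among the transcription regulators 4 of 5 rose in G34R. Irf9, the DNA-binding partner of STAT2 (chromosome 14, 55603571 to 55610030, plus strand), was at 4.90, 5.91 and 7.39 CPM in WT and at 13.9, 13.2 and 11.7 CPM in G34R. The groups did not overlap, and the fold change was 2.21 (log2 1.14, SE 0.14, edgeR adjusted p = 5.11e-05). Irf7, which drives the amplification of interferon genes, was at 1.24, 1.80 and 2.29 CPM in WT and at 6.48, 3.73 and 3.63 CPM in G34R (log2 1.42, SE 0.27). Irf1, an activator that interferon gamma also induces, rose by a smaller amount, from 4.33, 5.37 and 5.69 CPM in WT to 7.91, 7.10 and 7.84 CPM (log2 0.53, SE 0.11). Nlrc5, the transactivator of MHC class I genes, also rose (log2 1.20, SE 0.33, edgeR adjusted p = 0.043), a call that was lost in 7 of the 9 fits that each left out 1 animal. Stat2 was the exception in this group: it was at 12.7, 16.0 and 17.2 CPM in WT and at 18.2, 16.5 and 15.4 CPM in G34R. Its ranges overlapped, and the log2 fold change of 0.10 had a 95% interval of -0.11 to 0.32.

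The 4 IFIT members lie near each other on chromosome 19 (34550694 to 34650009), in the order Ifit2, Ifit3, Ifit3b, Ifit1. They encode proteins that bind foreign RNA, and other genes in this stretch were not listed here. Of the 4, 3 rose in G34R. Ifit3 (34583531 to 34588731) was at 8.21, 9.28 and 10.4 CPM in WT and at 32.4, 21 and 25.3 CPM in G34R (log2 1.49, SE 0.25, edgeR adjusted p = 0.0033, and 0.088 in a fit blocked by consecutively numbered animals). Ifit3b (34607970 to 34613401) was at 5.07, 5.64 and 6.09 CPM in WT and at 18.2, 12.4 and 15.7 CPM in G34R (log2 1.46, SE 0.19). Neither gene had a G34R animal inside the WT range. Of all 50-base words of Ifit3 transcripts, 51.2% also occur in another gene, Ifit3b, so reads could be split between the pair and their separate levels are uncertain. Ifit1 was at 1.53, 2.35 and 2.77 CPM in WT and at 8.43, 4.84 and 4.53 CPM in G34R (log2 1.4, SE 0.33). Ifit2 (34550694 to 34576419), the first of the 4 in that order, was at 11.6, 13.0 and 13.5 CPM in WT and at 15.7, 14.9 and 14.5 CPM in G34R. All 3 G34R animals lay above WT, but the log2 difference of 0.23 (SE 0.10, edgeR adjusted p = 0.23) was not called.

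In the ISG15 system, which attaches and removes the ubiquitin-like protein ISG15, 2 of 4 members rose. Isg15 itself was at 0.415, 0.678 and 0.750 CPM in WT and at 2.43, 1.58 and 1.81 CPM in G34R (log2 1.62, SE 0.28). Usp18, the enzyme that removes ISG15 and also restrains the interferon receptor, was at 0.634, 0.805 and 1.18 CPM in WT and at 3.93, 2.38 and 2.72 CPM in G34R (log2 1.84, SE 0.31, edgeR adjusted p = 0.0015). The ligase genes behaved otherwise. Herc6, the mouse ligase for ISG15, was at 14.4, 17.6 and 21.1 CPM in WT and at 19.9, 17.7 and 17.4 CPM in G34R, all 3 inside the WT range, with a log2 difference of 0.06 (95% interval -0.15 to 0.27). Of the exon bases of Herc6, 13.7% are shared with a gene on the same strand, so its own level is uncertain. Trim25, which activates RIG-I, was at 2.93, 3.72 and 5.08 CPM in WT and at 4.61, 3.85 and 4.25 CPM in G34R (log2 0.16, SE 0.17), also within the WT range.

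Of the cytosolic sensors 2 of 5 rose. Ddx58, which encodes RIG-I, was at 3.15, 4.39 and 5.05 CPM in WT and at 8.73, 6.62 and 6.85 CPM in G34R (log2 0.83, SE 0.15, edgeR adjusted p = 0.0021). Eif2ak2, the kinase PKR that halts translation on binding double-stranded RNA, was at 5.0, 6.28 and 7.21 CPM in WT and at 9.11, 8.77 and 9.03 CPM in G34R (log2 0.53, SE 0.14), with a call that was lost when any 1 of the 3 G34R animals was left out. Ifih1 did not pass: it was at 5.62, 6.56 and 7.52 CPM in WT and at 7.99, 6.39 and 7.12 CPM in G34R, with a log2 difference of 0.12 (95% interval -0.12 to 0.36). Against WT the ranges were apart for RIG-I and overlapped for MDA5, and the difference between the genes was not tested. Dhx58, the LGP2 cofactor of both, was at 0.541, 0.857 and 1.18 CPM in WT and at 2.04, 1.1 and 1.24 CPM in G34R, with replicate 2 inside the WT range (log2 0.80, SE 0.27, edgeR adjusted p = 0.10). Zbp1, a sensor of Z-form nucleic acid, was near its detection limit, with 0.270 CPM or less in WT and 0.432, 0.283 and 0.321 CPM in G34R. Its log2 estimate of 1.66 carried an SE of 0.76 and was not called.

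The 5 GTPase genes all rose in G34R. Proteins of these families assemble on viruses or on vacuoles that hold pathogens, but Mx2 is annotated as a polymorphic pseudogene. Gbp2 was at 2.84, 3.35 and 4.04 CPM in WT and at 8.29, 6.45 and 5.81 CPM in G34R (log2 1.02, SE 0.16, edgeR adjusted p = 0.00049). Gbp3 was at 4.18, 5.10 and 5.95 CPM in WT and at 11.9, 8.29 and 8.80 CPM in G34R (log2 0.91, SE 0.17). Gbp7 was at 6.06, 7.39 and 8.48 CPM in WT and at 12.5, 9.56 and 11.3 CPM in G34R (log2 0.62, SE 0.14). The guanylate-binding genes therefore had no G34R animal within the WT range. Gbp7 shares 11.3% of its exon bases with a gene on the same strand. Mx1 changed most of the 44 members (log2 2.5, SE 0.50, edgeR adjusted p = 0.0049), from a low level of 0.104, 0.195 and 0.490 CPM in WT to 1.35, 1.30 and 1.06 CPM. Mx2 rose by 1.23 (SE 0.33), and its call was lost in 7 of 9 fits that left out 1 animal.

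The oligoadenylate synthetases make the messenger that activates RNase L. Oasl2 was at 0.952, 1.88 and 2.40 CPM in WT and at 5.95, 4.19 and 4.82 CPM in G34R (log2 1.54, SE 0.29, edgeR adjusted p = 0.0041). Oas1a was at 0.305, 0.516 and 0.693 CPM in WT and at 2.43, 1.61 and 1.43 CPM in G34R (log2 1.88, SE 0.31). Both rose without overlap, although 57.6% of the 50-base words of Oas1a also occur in Oas1g or Oas1b, so its own level is uncertain. Oas2 was low in both groups, at 0.102, 0.190 and 0.404 CPM in WT and 0.270, 0.368 and 0.272 CPM in G34R (log2 0.53, SE 0.44, not called).

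Among the nucleotide enzymes, Rsad2 and Cmpk2 are neighbours on chromosome 12 that are read away from each other (Rsad2 26442746 to 26456452, minus strand; Cmpk2 26469204 to 26479837, plus strand). Rsad2, or viperin, which makes a chain-terminating nucleotide, was at 0.914, 1.24 and 1.93 CPM in WT and at 4.39, 3.68 and 3.29 CPM in G34R (log2 1.55, SE 0.26, edgeR adjusted p = 0.0010). Cmpk2, a mitochondrial nucleotide kinase, was at 21.1, 23.3 and 27.2 CPM in WT and at 25.9, 24.5 and 24.8 CPM in G34R. The log2 difference of Cmpk2 was 0.09 (SE 0.07), and its 95% interval of -0.06 to 0.24 lay wholly below the interval of Rsad2, 1.0 to 2.09. Samhd1, which depletes the nucleotides that viruses need, was at 5.23, 5.88 and 7.48 CPM in WT and at 7.71, 8.37 and 8.06 CPM in G34R. This log2 change, 0.41 (SE 0.11, edgeR adjusted p = 0.041), was the smallest that was called, and the call was lost in 8 of 9 fits that left out 1 animal.

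In the PARP group, ADP-ribosyl transferases and the ubiquitin ligase DTX3L, 2 of 4 rose. Parp9 and Dtx3l encode partners in 1 complex and overlap head to head on chromosome 16, where 9.40% of the exon bases of Parp9 are also exon of Dtx3l on the other strand. The strand setting of the counting is not given in the sources used here, so reads in that stretch cannot be assigned. Parp9 was at 2.76, 3.42 and 4.17 CPM in WT and at 6.57, 5.43 and 5.39 CPM in G34R (log2 0.77, SE 0.15, edgeR adjusted p = 0.0036). Dtx3l was at 5.74, 6.80 and 7.30 CPM in WT and at 7.87, 7.47 and 7.39 CPM in G34R (log2 0.20, SE 0.11, edgeR adjusted p = 0.36), above WT in all 3 animals by a small margin. Parp14 rose (log2 0.82, SE 0.19), and Parp12, at 5.87, 7.03 and 7.82 CPM in WT and 8.45, 8.60 and 7.81 CPM in G34R, did not pass (log2 0.27, SE 0.15).

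The 5 genes of membrane and secreted proteins all rose. Lgals3bp, a secreted galectin-binding glycoprotein, was at 6.78, 7.90 and 9.09 CPM in WT and at 25.9, 20.1 and 20.4 CPM in G34R (log2 1.49, SE 0.16), with the smallest edgeR adjusted p of the members, 2.32e-05. Ifi27 was at 16.7, 20.6 and 22.8 CPM in WT and at 38.3, 28.8 and 28.1 CPM in G34R (log2 0.68, SE 0.14). Bst2, or tetherin, which holds budding viruses to the cell surface, was at 1.33, 1.58 and 1.83 CPM in WT and at 5.30, 4.36 and 4.33 CPM in G34R (log2 1.54, SE 0.29). None of the 3 genes had overlapping groups. Rtp4 (log2 1.23, SE 0.22) and Ifitm3, which blocks viral entry (log2 0.86, SE 0.17), rose as well. Rtp4 shares 13.9% of its exon bases with a gene on the same strand.

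Of the other effectors 5 of 6 rose. Trim30a, a TRIM family protein, was at 1.17, 1.75 and 2.15 CPM in WT and at 5.83, 4.50 and 5.09 CPM in G34R (log2 1.60, SE 0.19, edgeR adjusted p = 3.19e-05). Xaf1, a gene tied to cell death, was at 2.03, 2.14 and 3.23 CPM in WT and at 5.64, 4.24 and 3.96 CPM in G34R (log2 0.94, SE 0.17). Ifi44 rose from 0.336, 0.483 and 0.519 CPM to 1.89, 1.64 and 1.04 CPM (log2 1.73, SE 0.34), again with the groups apart. Trim21, an antibody receptor in the cytosol (log2 0.90, SE 0.17), and Ifi35 (log2 0.76, SE 0.21, edgeR adjusted p = 0.043) also rose, the latter with 16.8% of its exon bases shared with a gene on the other strand and a call lost in 7 of 9 fits that left out 1 animal. Sp100, a nuclear body protein, was at 1.01, 1.35 and 1.73 CPM in WT and at 2.90, 1.67 and 1.73 CPM in G34R, so only replicate 1 stood clear of WT (log2 0.64, SE 0.24, edgeR adjusted p = 0.15).

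The 12 members without a call were thus of 2 kinds. Stat2, Herc6, Trim25, Ifih1, Ifit2, Cmpk2, Dtx3l and Parp12 had log2 estimates of 0.06 to 0.27 with SEs of 0.07 to 0.17. Zbp1, Dhx58, Oas2 and Sp100 had estimates of 0.53 to 1.66 with SEs of 0.24 to 0.76. They also differed in level. Ranked from the highest WT level per kilobase of exon at 10 weeks, Cmpk2, Ifit2, Stat2, Herc6, Parp12, Dtx3l, Ifih1 and Trim25 stood at 3, 5, 8, 9, 11, 17, 22 and 24 among the 45 members. Dhx58, Sp100, Oas2 and Zbp1 stood at 37, 38, 43 and 44. On that length-corrected scale the 12 ran from 0.0270 to 5.66 CPM and the 32 that rose from 0.0611 to 13.5 CPM.

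**Figure D2:**
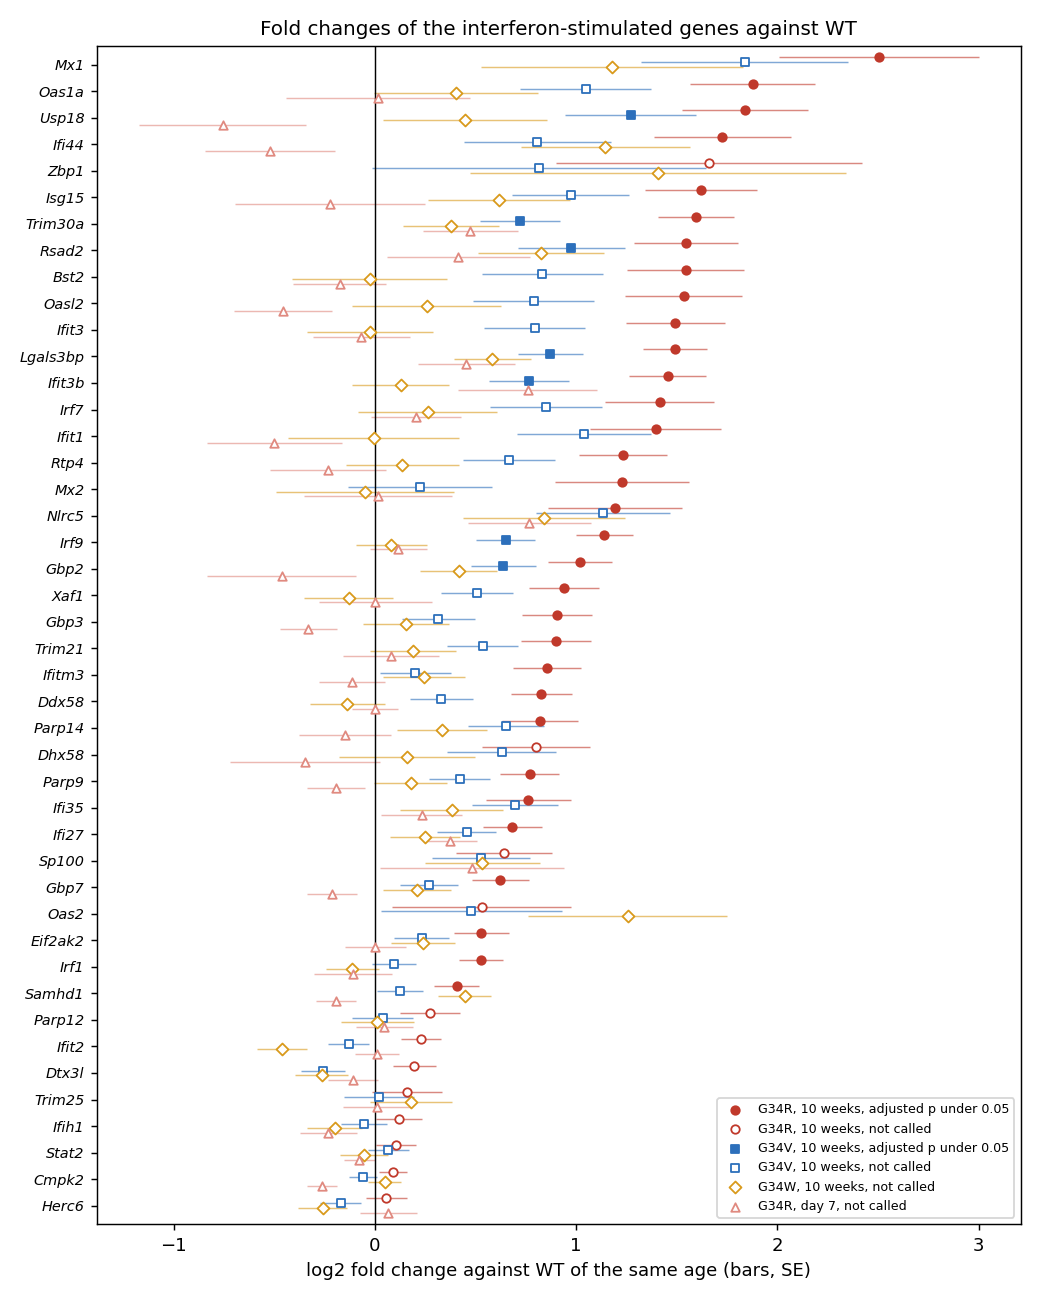
Log2 fold changes against WT of the same age for the 44 members tested at 10 weeks, ordered by the G34R value, with bars of 1 SE. Filled symbols passed an edgeR adjusted p of 0.05: 32 for G34R and 7 for G34V at 10 weeks, and none for G34W or for G34R at day 7, where Zbp1, Oas2 and Mx1 were not tested.

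Within G34R the animals were not equal. Replicate 1 had the highest level of the 3 in 38 of 44 members. The median log2 ratio to the WT mean over the 44 members was 1.12, 0.79 and 0.77 in replicates 1, 2 and 3, while the 6 WT animals ran from -0.20 to 0.10. Replicates 1, 2 and 3 lay above every WT animal in 40, 36 and 37 of the 44 members, which 19.2%, 18.7% and 18.4% of all genes did in the same animals. Without replicate 1 the count of members called was 21, and the median log2 fold change was 0.77. The calls lost were those of Eif2ak2, Irf7, Nlrc5, Ifit1, Mx2, Gbp7, Parp14, Samhd1, Ifitm3, Ifi27 and Ifi35. The 3 G34R libraries and 3 WT libraries formed a set with a lower share of mitochondrial protein-coding counts (0.886 to 1.03%) than the other 9 libraries at 10 weeks (1.12 to 1.36%), and within that set alone 31 members were called. When animals with consecutive numbers were fitted as blocks, which the labels do not call batches, 21 were called. The calls lost there were those of Irf1, Ifit1, Ifit3, Oasl2, Mx2, Gbp3, Gbp7, Samhd1, Bst2, Trim21 and Ifi35, with edgeR adjusted p of 0.053 to 0.29 and estimates that stayed positive.

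In G34V the ISG level varied with the animal. Of 44 members 7 rose (15.9%; 1.57% of all genes were called higher) and none fell (2.68% of all genes were called lower). The WT animals are the same as in the G34R comparison, so the comparisons are not independent. The median log2 fold change was 0.58, with 39 positive and 5 negative estimates, but the median log2 ratio to the WT mean was -0.04, 0.31 and 0.97 in replicates 1, 2 and 3. Replicate 3 was the highest of the 3 in 42 of 44 members, and replicate 1 the lowest in 35. Replicate 1 lay above every WT animal in 9 members, replicate 2 in 22 and replicate 3 in 38, where 17.3%, 16.3% and 18.8% of all genes did. Replicates 1, 2 and 3 reached at least the lowest G34R animal in 2, 3 and 34 members, which 70.5%, 71.1% and 75.2% of all genes did.

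**Figure D3:**
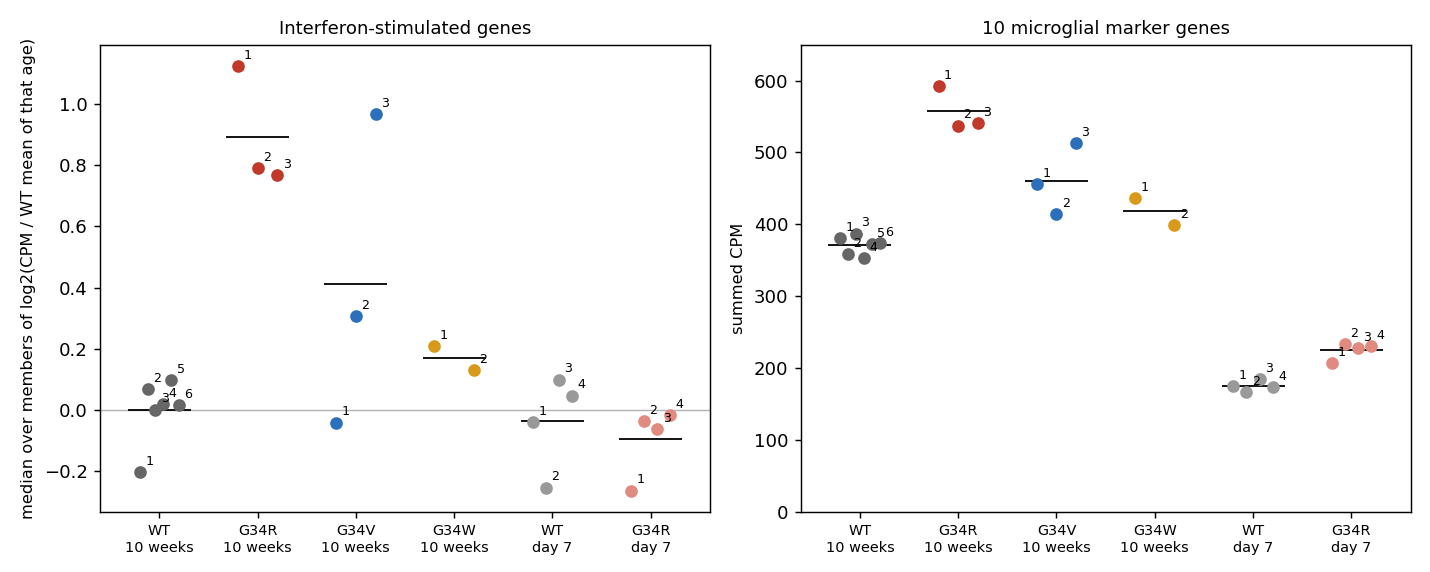
Left, the median over members of the log2 ratio of CPM to the WT mean of the same age, and right, the summed CPM of 10 microglial marker genes, with 1 numbered point per animal (the number is the replicate) and lines at group means. On the left G34V spreads from -0.04 to 0.97, and day-7 G34R lies around 0, and on the right all 4 G34R animals at day 7 lie above all 4 WT animals.

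Irf9, Usp18, Ifit3b, Gbp2, Rsad2, Lgals3bp and Trim30a were the members called in G34V. Lgals3bp was at 11.2, 11.7 and 20.3 CPM, all above the highest WT animal (log2 0.87, SE 0.16, edgeR adjusted p = 0.0050). Irf9 was at 7.86, 7.95 and 11.8 CPM, also above WT in all 3 (log2 0.65, SE 0.14, edgeR adjusted p = 0.014). Usp18 was at 0.727, 2.09 and 3.27 CPM (log2 1.27, SE 0.32), so its replicate 1 stood inside the WT range and its call rested on replicates 2 and 3. Ifit3b showed the same order with 5.5, 9.26 and 13.9 CPM (log2 0.77, SE 0.20), and Ifit3 with 8.67, 14.3 and 25.5 CPM (log2 0.79, SE 0.25, not called). Gbp2 was at 4.05, 4.76 and 6.97 CPM (log2 0.64, SE 0.16), Rsad2 at 1.38, 2.25 and 4.0 CPM (log2 0.98, SE 0.27), and Trim30a at 2.26, 2.29 and 3.85 CPM (log2 0.72, SE 0.20). Of the 7, Irf9, Gbp2, Lgals3bp and Trim30a had no animal within the WT range; with Isg15 and Oas1a, 6 of 44 members had none, against 4.22% of all genes.

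Single libraries decided much of the G34V count. It was 15 without G34V replicate 1, 1 without G34V replicate 3 and 2 without G34V replicate 2, and it was 2 without WT replicate 1, 3 or 4 and 4 without WT replicate 5 or 6. Without replicate 3 the median log2 fold change was 0.28. DESeq2 called 16 members, limma-voom 3, a fit of only WT and G34V 3, a block on number runs 1 and a block on the library sets 2. Within the library set that holds all G34V animals none was called, although the median there was 0.52. Lgals3bp kept its call in 19 of 20 alternatives and Irf9 in 17, and the other 5 in 5 to 11.

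No member was called in G34W by edgeR's quasi-likelihood test, with 2 animals (1.63% of all genes were called in either direction). At an unadjusted p under 0.05 there were 8, DESeq2 called 3 and limma-voom 0. The median log2 fold change was 0.20, with 32 positive and 12 negative estimates. Among the 7 members with both animals above every WT animal (7.35% of all genes had this) were Lgals3bp, at 12.8 and 10.9 CPM (log2 0.58, 95% interval 0.18 to 0.99), Samhd1, at 8.33 and 8.18 CPM (log2 0.45, 95% interval 0.17 to 0.72), and Rsad2, at 2.37 and 2.24 CPM (log2 0.83, 95% interval 0.16 to 1.49). Ifit2 and Dtx3l lay below every WT animal (9.08% of all genes did), Ifit2 at 8.25 and 10.3 CPM (log2 -0.46, SE 0.12, edgeR adjusted p = 0.070). Ifit3, at 10.5 and 7.93 CPM, had a log2 difference from WT of -0.02 with a 95% interval of -0.71 to 0.66. With 1 animal of a group left out, at most 1 member was called, and such fits with a single G34W animal assume that it varies like the other groups.

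Set directly against G34W, 8 members were higher in G34R (18.2%; 0.94% of all genes): Ddx58, Irf9, Irf1, Ifit2, Ifit3b, Lgals3bp, Trim30a and Xaf1. The log2 difference of Irf9 was 1.06 (SE 0.20, edgeR adjusted p = 0.012), from 6.76 and 5.72 CPM in G34W. Ifit3b differed by 1.33 (SE 0.27), with 6.49 and 5.84 CPM in G34W, and Ddx58 by 0.96 (SE 0.21), with 3.36 and 4.20 CPM. Ifit2, which did not pass against WT in either group, differed between them by 0.69 (SE 0.14, edgeR adjusted p = 0.017). In 36 of 44 members every G34R animal lay above both G34W animals, where 17.2% of all genes did. The count of 8 became 1 without G34R replicate 1 or G34W replicate 1, 2 without G34W replicate 2, 5 without G34R replicate 2 and 4 without G34R replicate 3. It was 18 with DESeq2, 2 with the sex label as a covariate and 0 with limma-voom, with number runs or with library sets as a block. All G34R libraries lay in the set with the lower mitochondrial share and all G34W libraries in the other. G34R and G34W also shared no number run. The direct comparison therefore cannot be told apart from these sets, and the block fits link the genotypes only through WT.

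Against G34V no member was called in G34R by edgeR (0.23% of all genes were, in either direction), with 19 at an unadjusted p under 0.05, 3 by DESeq2 and 2 by limma-voom. All 44 estimates were positive, with a median of 0.43. Without G34V replicate 3, 9 members were called. Trim30a had a log2 difference of 0.88 (95% interval 0.40 to 1.35, edgeR adjusted p = 0.14), Ifit3 of 0.70 (0.06 to 1.34) and Irf1 of 0.43 (0.16 to 0.70), whereas Nlrc5 had 0.06 (-0.75 to 0.87). In 10 of 44 members all G34R animals lay above all G34V animals, against 9.22% of all genes. All G34R libraries had the lower mitochondrial share and all G34V libraries the higher, and G34R and G34V shared no number run. These genotypes therefore cannot be told apart from the sets of libraries and animals. Between G34V and G34W no member was called by edgeR (0.15% of all genes), DESeq2 or limma-voom, with 8 at an unadjusted p under 0.05 and a median of 0.28 that was 0.0079 without G34V replicate 3. G34V and G34W lay in the same library set but shared no number run.

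At day 7 the members did not stand apart between genotypes. Of 42 members tested, edgeR called none (0.308% of all genes), as did DESeq2 and limma-voom, and 5 had an unadjusted p under 0.05. There were 21 positive and 21 negative estimates, and the median log2 fold change was -0.03. Irf9 was at 9.52, 6.28, 9.66 and 9.41 CPM in WT and at 9.49, 9.87, 10.0 and 8.03 CPM in G34R (log2 0.12, 95% interval -0.20 to 0.43). Ifit3 was at 0.564, 1.03, 1.20 and 0.999 CPM in WT and at 0.821, 0.636, 1.23 and 0.990 CPM in G34R (log2 -0.07, 95% interval -0.60 to 0.46). These intervals lie below the 10-week estimates for the same genes. Usp18 had the lowest estimate (log2 -0.76, SE 0.42), at 0.265, 0.362, 0.264 and 0.549 CPM in WT and 0.103, 0.292, 0.192 and 0.238 CPM in G34R. In 3 members the groups did not overlap, 1 higher in G34R (2.3% of all genes) and 2 lower (2.92%). Oas3, at 0.199, 0.0402, 0.0812 and 0.0196 CPM in WT, was at 0.308, 0.378, 0.241 and 0.513 CPM in G34R (log2 2.26, SE 0.58, edgeR adjusted p = 0.23), and Cmpk2 (log2 -0.26, SE 0.07, edgeR adjusted p = 0.29) and Oasl2 (log2 -0.46, SE 0.24) lay lower in G34R.

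The difference of the G34R effect between the ages was tested as an interaction over all 22 animals. It was called in 11 of 45 members, all larger at 10 weeks (24.4%; 0.562% of all genes were called in that direction and 0.602% in the other). Among the 11, Usp18 had the largest log2 difference, 2.61 (SE 0.53, edgeR adjusted p = 0.012), followed by Ifi44 with 2.29 (SE 0.55) and Oasl2 with 2.03 (SE 0.41). Irf9 differed by 1.04 (SE 0.21, edgeR adjusted p = 0.011) and kept its call in all 24 alternatives run. The others were Bst2, Gbp2, Rtp4, Gbp3, Parp9, Ddx58 and Samhd1, with differences of 0.61 to 1.72. All 45 estimates were positive, with a median of 0.97 against -0.00031 over all genes. DESeq2 called 18. Without G34R replicate 1 at 10 weeks 1 member was called. The count was 6 without WT replicate 1 or G34R replicate 2 at 10 weeks, 7 without WT replicate 4 or 6 at 10 weeks, 4 without G34R replicate 1 or WT replicate 4 at day 7, 5 without WT replicate 3 at day 7, and 7 without G34R replicate 2, 3 or 4 at day 7. This fit held no term for sex. All WT and G34R animals at 10 weeks were labelled male, whereas both day-7 genotypes held males and females. Age therefore cannot be told apart from sex or from other differences between the sets of animals.

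In WT the members themselves moved with age. From day 7 to 10 weeks 25 of 45 rose (55.6%; 33.3% of all genes) and 3 fell (6.67%; 34.4% of all genes), with a median log2 fold change of 0.58 against -0.012 over all genes. Ifit3b had the largest rise, from 0.199, 0.201, 0.264 and 0.372 CPM at day 7 to between 5.07 and 6.09 CPM, which is 4.39 in log2 units (SE 0.29, edgeR adjusted p = 6.46e-12). Ifit3 rose by 3.25 (SE 0.28), Ifit1 by 2.20 (SE 0.34), Xaf1 by 2.16 (SE 0.21) and Ifi27 by 2.04 (SE 0.15). Herc6 rose from 2.29, 2.92, 2.66 and 3.27 CPM to between 14.4 and 21.1 CPM (log2 2.65, SE 0.11, edgeR adjusted p = 2.95e-16). The age change of Herc6 was thus large, while its level at each age differed little between genotypes, with 3.0, 2.94, 2.67 and 3.01 CPM in G34R at day 7. Irf9 fell by 0.57 on the log2 scale (SE 0.14) and Trim25 by 0.57 (SE 0.17), neither of them called with only males, and Samhd1 fell by 0.81 (SE 0.10), the last from 11.7, 9.84, 10.2 and 10.8 CPM. Cell type markers moved with age in the same comparison. Of 10 microglial markers 8 rose (median log2 fold change 1.09), as did 8 of 8 oligodendrocyte markers (median 5.26). Of 8 neuronal markers 7 rose and 1 fell (median 1.03), and of 8 astrocyte markers 5 rose and 2 fell (median 0.31). Of 8 endothelial markers 3 rose and 3 fell (median 0.0052), and of 8 pericyte and meningeal markers 5 fell and none rose (median -0.43). The part of these cell types in the age change of the members was not tested. Ages were sequenced in separate sets of animals, so anything else that differed between these sets cannot be told apart from age.

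**Figure D4:**
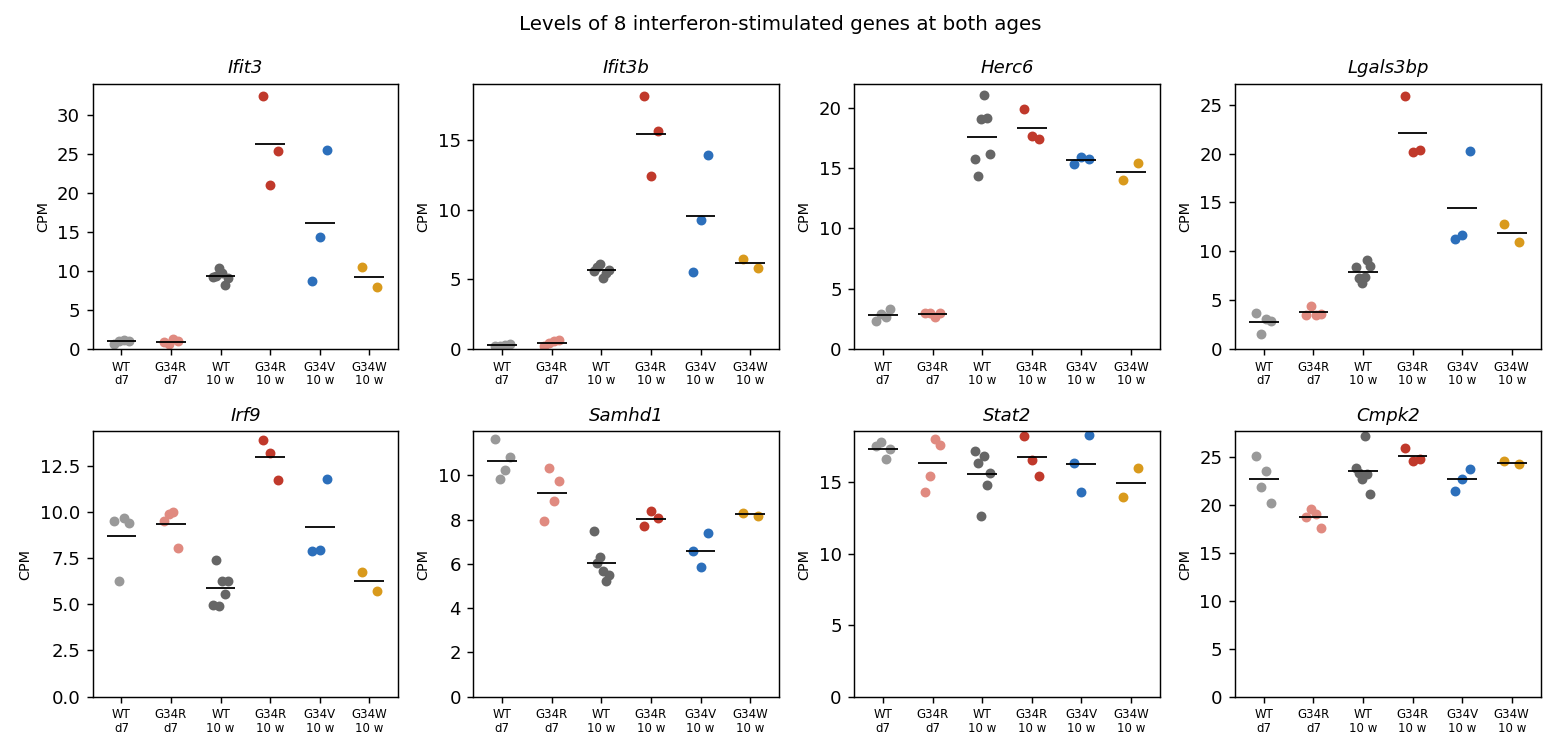
CPM of 8 members in every animal (1 point each, lines at group means, each vertical axis from 0), with day 7 (d7) on the left and 10 weeks (10 w) on the right of each panel. Ifit3, Ifit3b and Lgals3bp are higher in G34R than in WT at 10 weeks and not clearly apart at day 7, Herc6 differs by age, Irf9 and Samhd1 are lower in WT at 10 weeks than at day 7, and Stat2 and Cmpk2 are near level.

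The rest of the pathway was read from lists of other genes. Interferon genes themselves were at or near 0: of 13 ligand genes 9 had no count in any of the 22 animals, and the highest count was 4 in 1 animal, so none was tested. Stat3 was among the receptor, kinase and STAT genes that rose in G34R at 10 weeks (log2 0.31, SE 0.06, edgeR adjusted p = 0.0056), and none of that list fell. Irf8, a factor of microglia, was among the further IRF genes that rose in G34R (log2 1.28, SE 0.12) and in G34V (log2 0.74, SE 0.13). Of 18 upstream sensing genes 4 rose and 1 fell in G34R at 10 weeks, where 2.94% of all genes rose and 2.65% fell. The sensing genes that rose included Unc93b1, which carries Toll-like receptors to endosomes (log2 0.90, SE 0.11), Tmem173, which encodes STING (log2 0.83, SE 0.14), and Trex1, a nuclease that removes cytosolic DNA (log2 0.62, SE 0.09). Named after their values were seen, the other sensing genes called were Tlr7, a receptor for single-stranded RNA (log2 0.75, SE 0.16), and Adar, which edits double-stranded RNA and was the one that fell (log2 -0.28, SE 0.08). Among 12 inhibitors Ptpn6, the phosphatase SHP-1 of blood-derived cells and microglia, rose by 1.32 (SE 0.14) and Ptpn11 fell by 0.25 (SE 0.05).

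Other interferon-induced genes were also mostly higher or uncalled. Of 49 tested, 22 rose and 1 fell in G34R at 10 weeks, with a median log2 fold change of 0.72. Of all genes 2.94% rose and 2.65% fell there. B2m, the light chain of MHC class I, was at 91.0, 92.6 and 85.8 CPM against a highest WT value of 50.6 CPM (log2 0.92, SE 0.10, edgeR adjusted p = 2.0e-05). Cxcl10, a chemokine for T cells, was at 2.94, 1.41 and 1.73 CPM against at most 0.370 CPM in WT (log2 3.25, SE 0.45), and Psmb8 of the immunoproteasome rose by 1.24 (SE 0.18). The gene that fell was Ifit1bl1, named after its values were seen, with at most 2.29 CPM in G34R against a lowest WT value of 3.37 CPM (log2 -0.85, SE 0.14). Of 19 genes induced mainly by interferon gamma 6 rose, among them Iigp1 (log2 1.51, SE 0.26), Igtp (log2 0.83, SE 0.15) and Cxcl9, which had at most 0.0462 CPM in WT. In G34V the other interferon-induced genes held 10 that rose and 2 that fell of 49 (Ifit1bl1 and, named after its values were seen, Ifit1bl2), the gamma list 1 of 19 (Cxcl9), and in G34W neither list had a call. Cxcl9 stands in both lists and is counted in each, in G34R as in G34V. Of all genes 1.57% were called higher and 2.68% lower in G34V, and 1.63% were called in either direction in G34W. At day 7 no gene of these lists was called in G34R, where 0.308% of all genes were called in either direction.

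Cell type markers were read beside these results. All 8 neuronal markers were detected in every group, with sums of 6855 to 7835 CPM in WT and 6736 to 6773 CPM in G34R at 10 weeks. In bulk RNA, fewer cells of a type and less RNA per cell cannot be told apart. Of 10 microglial markers, all detected in every group, 7 rose in G34R at 10 weeks, where 2.94% of all genes rose (median log2 fold change of the markers 0.47). The summed level of the microglial markers was 353 to 387 CPM in WT, 593, 537 and 541 in G34R replicates 1, 2 and 3, 456, 414 and 512 in the G34V replicates, and 437 and 399 in G34W. In the same order the ISG medians of these animals were 1.12, 0.79 and 0.77 in G34R, -0.04, 0.31 and 0.97 in G34V, and 0.21 and 0.13 in G34W. The part of microglia in the ISG result was not tested. At day 7 the microglial sum was 167 to 184 CPM in WT and 207 to 233 CPM in G34R, and 4 of 10 markers were called higher (median 0.49). Of all genes 0.308% were called in either direction at that age. Oligodendrocyte markers stood lower in the mutants at 10 weeks. The 8 of them summed to 4203 to 5500 CPM in WT, 3152 to 4051 in G34R, 2631 to 3438 in G34V, and 4327 and 2850 in G34W replicates 1 and 2, so every G34R and G34V animal lay below every WT animal. None was called in G34R (median log2 fold change -0.31), 3 fell in G34V (median -0.54) and 2 in G34W (median -0.46). Of all genes 2.65% fell in G34R and 2.68% in G34V, and 1.63% were called in either direction in G34W. At day 7 the oligodendrocyte sums overlapped, at 183 to 241 CPM in WT and 176 to 231 CPM in G34R. The part of oligodendrocytes was not tested. The 8 astrocyte markers summed to 1665 to 1858 CPM in WT and 2111 to 2270 CPM in G34R at 10 weeks, where only Gfap, an intermediate filament, was called (log2 1.82, SE 0.07). The median log2 fold change of these 8 markers was 0.13. The part of astrocytes was not tested. The 8 endothelial markers had no call, with sums of 170 to 210 CPM in WT and 167 to 191 CPM in G34R. The 7 choroid plexus and ependyma markers varied widely between animals. At 10 weeks they summed to 159 to 941 CPM in WT, 446 to 743 in G34R, 245 to 1048 in G34V and 21.1 to 204 in G34W. None was called against WT, and their part in the ISG result was not tested. Lymphocyte and monocyte markers were low. The 8 B and plasma cell markers summed to 14.5 to 31.8 CPM in WT and 16.5 to 21.6 CPM in G34R at 10 weeks. The 10 T and NK cell markers summed to 3.49 to 7.69 CPM in WT and 3.58 to 4.72 CPM in G34R at 10 weeks. Nkg7 and Ncr1 were at 0 in all these WT animals, and Cd3g, Ncr1 and Gzma in all the G34R animals. The 10 monocyte and neutrophil markers summed to 10.2 to 13.8 CPM in WT and 13.2 to 13.8 CPM in G34R, with Ly6g at 0 in both. Only 3 of the B and plasma cell markers, 2 of the T and NK cell markers and 6 of the monocyte and neutrophil markers were tested, and none was called.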

How the data were processed

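The deposited file holds raw read counts per gene from the authors, whole numbers with no normalization. Per the submitters' processing notes, Trimmomatic 0.32, STAR 2.3.0e, bedtools 2.27.1, featureCounts 1.4.4 and mm10 were used; how each was run, the annotation release and the strand setting: not given in the sources used here. Total counts were 32.3 to 90.1 M (M, mega) per library at 10 weeks (15 libraries, 14 animals) and 28.4 to 53.5 M at day 7 (8 libraries). Groups follow the genotype and age labels, each replicate is an animal numbered in its title, and WT replicate 3 (animal 2498) had 2 libraries, which were summed. Of 39017 genes, 37607 have an identifier in GENCODE M21 (GRCm38), the source of coordinates.

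Counts were tested with edgeR 4.0.16 (quasi-likelihood, robust, TMM scaling, filterByExpr) in R 4.3.3, with Benjamini-Hochberg adjustment over all genes tested and a threshold of 0.05. One fit covered the 14 animals at 10 weeks (21283 genes), one the 8 at day 7 with sex as a covariate (20455 genes), and one all 22 for the interaction and for age in WT (22426 genes). In all, 6 sex-specific genes were left out. The SE is the log2 fold change over the square root of the F statistic, and 95% intervals use that SE. CPM are on 1 TMM scale over all animals. The steps were tested on simulated data.

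The members and gene lists were chosen with earlier results of these data known, so their counts are descriptions and no p was computed over a list. All members could be named, values in every animal went to the most abundant members of each role and to those that did not follow the rest or were called elsewhere, and up to 3 genes per pathway list were named by adjusted p. Some genes that this rule selects are not reported here. Alternatives were RLE scaling, no filter, a filter of 0.5 CPM in 3 animals, DESeq2 1.42.0, limma-voom (limma 3.58.1), libraries kept apart, fewer groups, blocks on number runs or on library sets split at 1.1% mitochondrial counts, the sex label added or dropped, only males for age, and each animal left out.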

Additional observations from a re-analysis of the deposited data

Results flagged for a closer look

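In the groups of 4 or 6 animals, 9 of 138 sets of values held 1 animal far from the rest, where chance gives about 1 in 20. These groups were WT at both ages and G34R at day 7, and the mutant groups at 10 weeks were not screened. The animals found are named next. At 10 weeks they were WT replicate 6 for Irf1 (4.33 CPM, low) and Mx1 (0.490 CPM, high), WT replicate 2 for Oas3 (0.139 CPM, high) and WT replicate 1 for the median log2 ratio over the members (-0.20, low). At day 7 they were WT replicate 2 for Irf9 (6.28 CPM, low) and Oas2 (0.302 CPM, high), WT replicate 3 for Ifit1 (0.406 CPM, low) and Trim21 (1.87 CPM, high), and G34R replicate 2 for Lgals3bp (4.4 CPM, high).

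The G34R effect differed between 10 weeks and day 7 by an edgeR interaction test in 11 members, with log2 differences of 0.84 for Ddx58, 1.04 for Irf9, 2.61 for Usp18, 2.03 for Oasl2, 1.58 for Gbp2, 1.27 for Gbp3, 0.97 for Parp9, 0.61 for Samhd1, 1.72 for Bst2, 1.49 for Rtp4 and 2.29 for Ifi44.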

How the results depend on the processing

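The labels give no replicate numbers that groups share, so the matched fits were those with number runs (animals numbered in sequence) as a block. Counts of members called, against 32 for G34R at 10 weeks, were 21 with number runs as a block and 21 to 31 with 1 animal left out. Of the 32 calls, 15 held in all 20 alternatives and 21 with each animal left out. For G34V, against 7, the counts were 16 with DESeq2, 3 with limma-voom, 3 with only the groups compared, 1 with number runs, 2 with library sets as a block, 0 within the library set, and 1 to 15 with 1 animal left out. For G34W, against 0, they were 3 with DESeq2, 1 with the sex label and 0 to 1 leaving out 1 animal. For G34R against G34V, against 0, they were 3 with DESeq2, 2 with limma-voom and 0 to 9. For G34R against G34W, against 8, they were 18 with DESeq2, 0 with limma-voom, number runs or library sets, 2 with the sex label and 1 to 5. For the difference between ages, against 11, they were 18 with DESeq2 and 1 to 15. The count for age in WT, 28 (22 to 29 leaving out 1 animal), and those of 0 for G34V against G34W and for day 7 moved by no more than 1.5 times in the alternatives run.

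With 1 animal left out the median log2 fold change ran from 0.28 to 0.70 for G34V against WT and from 0.0079 to 0.44 for G34V against G34W. Members without a call changed sign near 0 in G34R: Herc6 ran from -0.00825 to 0.126 with 1 animal left out and was -0.0109 with number runs, -0.027 with library sets as a block and -0.0139 within the set, and Stat2 was -0.0065 and Cmpk2 -0.029 with number runs. The cause of these changes was not tested. At low levels the estimates in G34R were wide for Zbp1 (SE 0.76), Mx1 (SE 0.50) and Oas2 (SE 0.44), of which Mx1 kept its call in all 20 alternatives, and Oas3 had too few counts to be tested at 10 weeks.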
